A study of Arabidopsis thaliana with 12 samples.

Results

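The comparison of 10 °C with 22 °C addresses the response of Arabidopsis to mild cold, using the 3 libraries held at 10 °C and the 3 libraries held at 22 °C, which are 6 of the 12 libraries of the series. Every library came from whole Col-0 (Columbia 0) plantlets, 14 days old at the start of treatment, grown in vitro, and each pooled 10 plantlets of 1 plate. The 22 °C group stayed in the growth chamber, and the remaining groups of 3 were held at 4 and 0 °C. Sample labels state 24 h for every cold temperature, whereas the series text pairs 0, 4 and 10 °C with 24, 48 and 72 h. If that text holds for these libraries, the 10 °C group was treated for 72 h, and temperature and duration cannot be told apart. No source used here gives the hour of harvest.

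Arabidopsis is best known in the cold for the CBF transcription factors, which switch on protective COR proteins and sugar synthesis as plants harden against frost. Genes of sugar supply, protein synthesis and defence chemistry, rather than the classic cold genes, are described here. Growth, sugar content and protein synthesis themselves were not measured. A reference list of 29 classic cold genes did rise at 10 °C, with 24 higher and 4 lower. Its median log2 fold change against 22 °C was 2.12 at 10 °C, 5.12 at 4 °C and 5.50 at 0 °C.

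Total estimated counts ran from 33454730 to 40309597 among the 6 libraries. Values are given as CPM, depth-scaled counts computed with edgeR's TMM factors, and a gene was called when its adjusted p in edgeR's quasi-likelihood test was under 0.05. The top 10 genes by abundance took 6.02% ± 0.070 of counts at 10 °C and 10.7% ± 0.29 at 22 °C (SD, n = 3). Assembled transcripts without a gene name held 9.97% ± 0.20 and 11.4% ± 0.023. These transcripts were not assigned to genes, so levels of abundant leaf genes, the green-tissue markers among them, may be incomplete. Markers of whole plantlets were present: the summed level of 10 green-tissue markers was 60514 to 63848 CPM at 22 °C and 34887 to 36339 at 10 °C, and 9 of them were lower. The sum of 12 root markers was 142 to 156 CPM at 22 °C and 133 to 139 at 10 °C, with 5 higher and 5 lower. Floral-organ markers summed to 4.82 to 5.44 CPM at 22 °C and 4.73 to 5.76 at 10 °C, with 1 higher and 1 lower of 6 tested. Seed storage markers summed to 0.25 to 0.47 CPM at 22 °C and 1.69 to 2.54 at 10 °C. Of 9 seed storage markers only 2 were tested, and both were higher. In such bulk tissue, fewer cells of a type and less RNA per cell cannot be told apart.

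Of 21293 genes tested, 13763 (64.6%) were called, 6894 higher at 10 °C (32.4%) and 6869 lower (32.3%). When libraries were scaled by total counts alone, 8542 were higher and 5316 lower, with log2 fold changes moved up by 0.15 at the median gene. Many calls were small: 5773 (41.9%) of them were under 1.5-fold. At least 2-fold, 2246 genes were higher (10.5%) and 1908 lower (8.96%). In 7526 genes (35.3%) all 3 libraries at 10 °C lay above all 3 at 22 °C, and in 7692 (36.1%) below. The first principal component of the 6 libraries, 88.1% of the variance, separated the temperatures. Against this background, a list is described by its counts and its median, and the median over everything tested was -0.01. Lists were chosen with earlier results of these data known. The colder libraries serve as reference values. Against 10 °C, 59.9% of genes were called at 4 °C and 70.6% at 0 °C.

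The promoters of 5 of the genes with the largest changes are printed here, 300 bases before the annotated gene start, because these genes are among the 12 largest rises and 12 largest falls described next and their windows hold known regulatory letter strings. The sequences are from the TAIR10.1 assembly, written 5′ to 3′ along the gene's strand. GPT2 lies at chr1:22824114-22824413, plus strand. RVE2 lies at chr5:14753089-14753388, minus strand, and DFR at chr5:17166033-17166332, minus strand. SEN1 lies at chr4:16944578-16944877, plus strand, and AT4G27450 at chr4:13729003-13729302, minus strand. Capitals mark matches, on either strand, to the evening element AAAATATCT, the CCA1-binding site AAAAATCT, the CRT core CCGAC, the G-box CACGTG, the site II element TGGGCC, the telo-box AAACCCTA, the sugar-repressive element TTATCCA and the I-box GATAAG.
GPT2: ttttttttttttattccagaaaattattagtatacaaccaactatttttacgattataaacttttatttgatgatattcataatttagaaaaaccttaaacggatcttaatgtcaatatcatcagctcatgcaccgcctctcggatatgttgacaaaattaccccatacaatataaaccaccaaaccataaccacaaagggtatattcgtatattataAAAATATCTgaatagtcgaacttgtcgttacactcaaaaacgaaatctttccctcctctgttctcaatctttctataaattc
RVE2: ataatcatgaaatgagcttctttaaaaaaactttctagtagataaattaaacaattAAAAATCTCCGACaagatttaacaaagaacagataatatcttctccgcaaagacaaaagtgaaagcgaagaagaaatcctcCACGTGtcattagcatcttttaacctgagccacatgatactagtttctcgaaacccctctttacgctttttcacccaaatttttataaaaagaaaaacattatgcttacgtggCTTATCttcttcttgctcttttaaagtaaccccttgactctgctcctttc
DFR: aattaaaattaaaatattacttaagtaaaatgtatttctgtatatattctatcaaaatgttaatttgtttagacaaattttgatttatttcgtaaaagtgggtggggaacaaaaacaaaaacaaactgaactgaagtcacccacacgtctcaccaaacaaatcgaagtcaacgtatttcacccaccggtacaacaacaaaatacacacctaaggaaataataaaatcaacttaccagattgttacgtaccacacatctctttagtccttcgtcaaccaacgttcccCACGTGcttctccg
SEN1: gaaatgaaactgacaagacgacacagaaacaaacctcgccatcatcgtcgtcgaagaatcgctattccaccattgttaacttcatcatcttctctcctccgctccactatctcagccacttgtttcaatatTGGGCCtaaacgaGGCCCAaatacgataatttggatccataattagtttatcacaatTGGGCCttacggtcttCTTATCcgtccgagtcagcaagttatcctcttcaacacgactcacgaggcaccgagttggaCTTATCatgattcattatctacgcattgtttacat
AT4G27450: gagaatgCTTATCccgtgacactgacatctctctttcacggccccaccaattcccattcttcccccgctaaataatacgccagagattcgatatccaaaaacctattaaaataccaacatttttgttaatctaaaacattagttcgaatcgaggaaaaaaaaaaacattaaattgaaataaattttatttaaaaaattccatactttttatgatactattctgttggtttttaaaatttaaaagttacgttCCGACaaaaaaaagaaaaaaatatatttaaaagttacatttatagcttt

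GPT2 holds an evening element 82 bases before its start, and DFR a G-box 14 bases before. RVE2 has a CCA1-binding site at 244, a CRT core at 236, a G-box at 163 and an I-box at 50 bases. SEN1 has 3 site II elements and 2 I-boxes, and AT4G27450 an I-box and a CRT core. Other windows of these 12 rises and 12 falls held none of the strings. Those were DTX1, AT5G62210, ChlAKR and TBL26 among the rises and GASA6, BXL1, AT4G36850 and AT1G62510 among the falls. Over all 21089 tested genes with such a window, the I-box was in 14.6% and the sugar-repressive element in 6.89%. Among genes at least 4-fold lower at 10 °C the shares were 30.4% and 16.9% (427 windows), and among those at least 4-fold higher 11.2% and 6.42% (561 windows). The letters TGGATAAG hold both strings at once, and with that run left out the I-box share was 24.6% of the 4-fold lower genes and 13.4% of all. The CRT core was in 18.5% of the 4-fold higher genes, 11.5% of the 4-fold lower and 14.8% of all. The evening element was in 2.85%, 5.39% and 2.96%. A match describes the window and is not evidence of binding.

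Among called genes outside the classic cold list averaging at least 5 CPM over the 6 libraries, the largest rise was that of GPT2, the plastid glucose-6-phosphate/phosphate translocator induced by sugar and high light. GPT2 stood at 0.940, 0.907 and 1.15 CPM in the 3 libraries at 22 °C and at 64.1, 62.2 and 59.0 at 10 °C. The groups lie far apart, with a log2 fold change of 5.95 ± 0.072 (SE, adjusted p = 1.69e-14). RVE2, a MYB-like factor of the clock family that includes LHY, was at 0.658, 0.026 and 0 CPM at 22 °C and at 11.2, 14.0 and 12.9 at 10 °C (log2 5.86 ± 0.38, adjusted p = 3.53e-08). RVE2 was higher still at 4 °C, 43.7 CPM, and at 0 °C, 143 CPM. LHY itself, a morning factor of the core clock, moved from 7.33, 9.54 and 7.87 CPM to 149, 149 and 150 (log2 4.17 ± 0.087). Its partner CCA1 rose from 60.0 to 208 CPM on average.

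Core clock genes were mixed. Of 18, LHY and CCA1 included, 10 were higher and 5 lower, with a median of 0.25. TOC1, which represses LHY and CCA1, had means of 64.3 CPM at 22 °C and 62.3 at 10 °C and was not called. RVE1, a morning factor linked to auxin synthesis, fell from 27.2 to 13.8 CPM at 10 °C, while it stood at 69.9 and 159 CPM in the colder groups. RVE8 had a log2 fold change of -1.09 that did not pass (adjusted p = 0.0628), and it passed when only the 6 libraries were fitted (0.000753). Since harvest hours are not known, the clock genes' differences in temperature and in hour cannot be told apart. The same limit holds for every other gene described here whose level varies over the day.

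**Figure D1:**
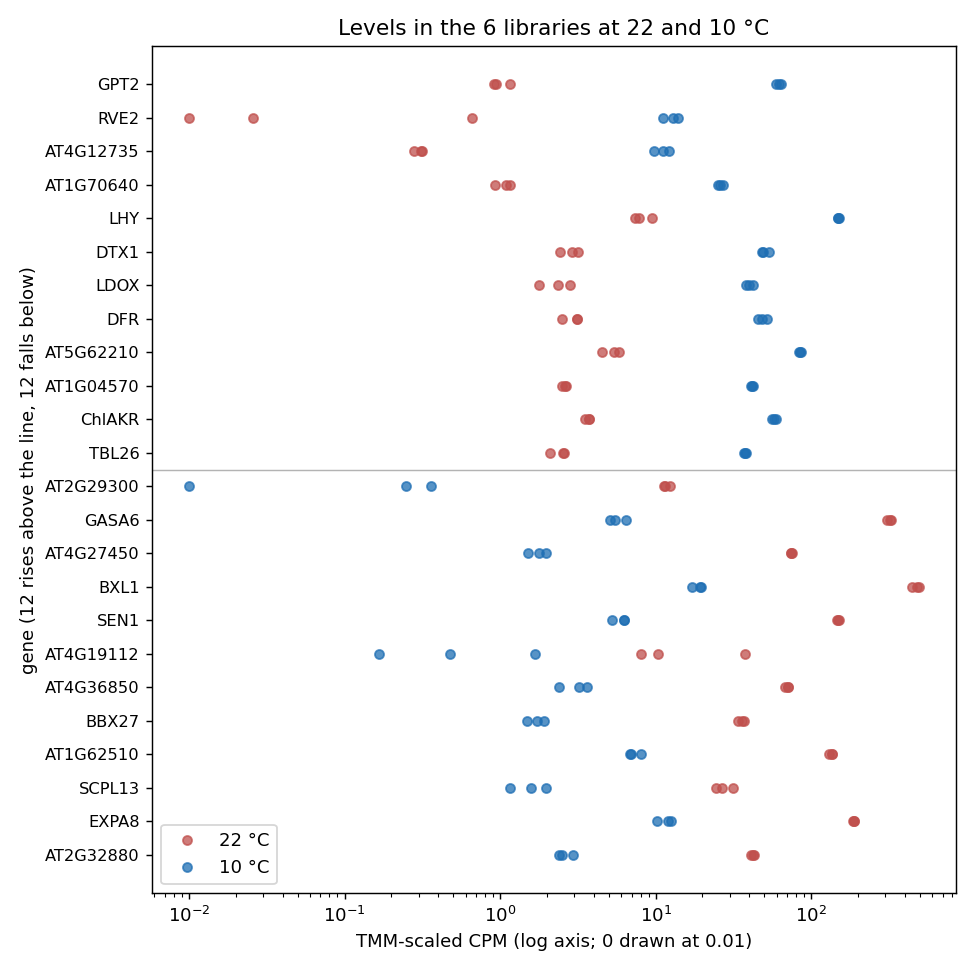
TMM-scaled CPM (log axis, a value of 0 drawn at 0.01) of the 12 genes with the largest rises and the 12 with the largest falls, with 1 point per library, red for 22 °C and blue for 10 °C. Groups do not overlap, as the choice of these genes required; GPT2 moves from about 1.00 to 61.8 CPM on average and GASA6 from 317 to 5.68.

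The other genes among the 12 largest rises included DFR and LDOX, which act late in anthocyanin synthesis, the multidrug and toxin efflux carrier DTX1 (log2 4.14 ± 0.091), the chloroplast aldo-keto reductase ChlAKR (3.98 ± 0.084) and TBL26, of a family of cell-wall polysaccharide acetyltransferases (3.96 ± 0.11). A PB1-domain protein, AT1G70640, rose from 1.06 to 26.1 CPM and AT1G04570, a major facilitator transporter, from 2.60 to 41.6. Both stood higher at 0 °C, at 240 and 744 CPM. AT5G62210, annotated as embryo-specific protein 3, rose from 5.24 to 84.5 CPM. AT4G12735, an uncharacterized protein, went from 0.313, 0.311 and 0.280 CPM to 9.77, 12.3 and 11.2, and its means at 4 and 0 °C were 0.479 and 1.63.

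Among the largest falls, GASA6, a gibberellin-regulated peptide, went from 320, 307 and 324 CPM at 22 °C to 5.11, 6.45 and 5.50 at 10 °C (log2 -5.80 ± 0.11, adjusted p = 3.78e-13). BXL1, a β-xylosidase that trims cell-wall polysaccharides, went from 493, 476 and 446 CPM to 19.4, 17.1 and 19.5 (log2 -4.66 ± 0.059). The wall-loosening expansin EXPA8 fell from 188 to 11.6 CPM, and it stood at 1.84 CPM at 0 °C. AT2G29300, an oxidoreductase of the Rossmann-fold superfamily, fell from 11.2, 11.4 and 12.5 CPM to 0.248, 0 and 0.359. The B-box factor BBX27, the serine carboxypeptidase-like SCPL13, the lipid-transfer-like AT1G62510, the PQ-loop protein AT4G36850 and the TRAF-like AT2G32880 fell by 4.00 to 4.52 on the log2 scale. AT4G27450, whose promoter is printed above, went from 74.2, 74.5 and 75.4 CPM to 1.51, 1.98 and 1.77 (log2 -5.41 ± 0.090). AT4G19112 ranged from 8.02 to 37.5 CPM at 22 °C and from 0.166 to 1.69 at 10 °C (log2 -4.55 ± 1.45, adjusted p = 0.0155). Its call was lost without the second 22 °C library (adjusted p = 0.0647), the second 10 °C library (0.0542) or the third (0.056).

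Genes that mark sugar shortage fell. SEN1, a dark-inducible gene and the standard marker of sugar starvation, was at 146, 149 and 150 CPM at 22 °C and at 6.25, 5.20 and 6.22 at 10 °C (log2 -4.65 ± 0.075, adjusted p = 1.38e-13). SEN1 averaged 12.3 and 39.9 CPM at 4 and 0 °C. STP1, a monosaccharide importer repressed by sugar, fell from 416, 417 and 420 CPM at 22 °C to 59.3, 51.3 and 59.8 at 10 °C. Of 16 tested carbon starvation markers, 13 were lower and 3 higher, with a median of -1.74; at 4 °C the median was -1.72. The falls also took in DRM1 (log2 -2.98), the dark-inducible DIN10 (-2.65), the leucine-degradation enzyme MCCA (-2.54) and the transcription factor BZIP63 (-1.89). At least 2-fold, 11 of these markers were lower and 2 higher. GPT2, the largest of the 3 rises, is itself induced by sugar. KIN10 and KIN11, the catalytic subunits of the energy-sensing kinase SnRK1, moved little, at -0.14 and 0.28.

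Autophagy, the recycling of cell contents in the vacuole that is raised when carbon runs short, ran the same way. Of 17 ATG genes tested, none was higher at 10 °C and 16 were lower, with a median of -0.66. ATG8F, one of the ubiquitin-like proteins that coat the autophagosome, fell from 165, 166 and 179 CPM to 36.9, 33.3 and 35.4 (log2 -2.27 ± 0.059, adjusted p = 6.19e-12). ATG8E fell by 1.95 and ATG13, a regulatory subunit of the initiating kinase complex, by 1.04. ATG18H was not called, at -0.22. ASN1, the dark-inducible asparagine synthetase, fell from 250, 243 and 239 CPM to 27.5, 22.8 and 24.6, and the ammonia-releasing GDH1 fell by 1.40 on the log2 scale.

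**Figure D2:**
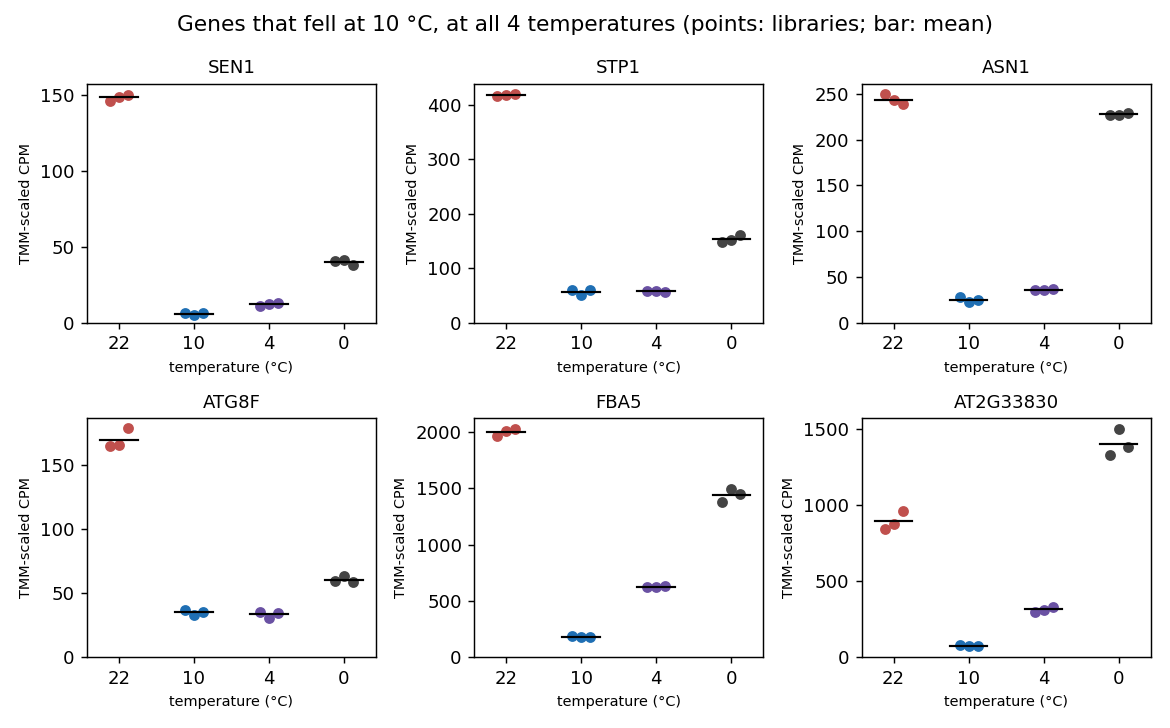
TMM-scaled CPM in all 12 libraries at 22, 10, 4 and 0 °C for 4 genes of carbon shortage, autophagy and asparagine synthesis and for FBA5 and AT2G33830, with 1 point per library and a bar at each mean. ASN1 stands at 25 CPM at 10 °C and at 228 CPM at 0 °C, beside 244 CPM at 22 °C. SEN1, FBA5 and AT2G33830 are each at least 2-fold lower at 10 °C than at every other temperature.

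Nitrogen genes split. Of 19 nitrogen assimilation genes, 8 were higher and 9 lower. Cytosolic glutamine synthetase GLN1;1 rose from 104 to 334 CPM (log2 1.68 ± 0.031), and the ammonium transporters AMT2 and AMT1;2 rose by 1.40 and 1.32. The plastid GS2 and the nitrate reductases NIA1 and NIA2 fell, by 0.93, 0.90 and 0.96. Photorespiration, the recycling of phosphoglycolate in leaves, was lower in 13 of 14 genes, with a median of -0.43. Peroxisomal hydroxypyruvate reductase HPR fell from 1044 to 412 CPM, and the aminotransferases GGT1 and AGT each fell by 1.07 on the log2 scale. GLDP2, a glycine decarboxylase subunit, was the single rise, at 0.38. The green-tissue markers given above moved the same way, 9 of 10 lower with a median of -1.16, and their part in the photorespiration falls was not tested.

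Sulfur metabolism and glucosinolates, the sulfur-rich defence compounds of the cabbage family, rose at 10 °C. MAM3, which extends methionine for long-chain aliphatic glucosinolates, was at 80.9, 85.8 and 82.1 CPM at 22 °C and at 267, 277 and 278 at 10 °C (log2 1.72 ± 0.039, adjusted p = 1.86e-12). Its means at 4 and 0 °C, 64.7 and 60.1 CPM, lay below those at 22 °C. Of 20 aliphatic glucosinolate genes tested, 18 were higher, from the regulators MYB28 and MYB29 (0.46 and 0.50) to the core enzymes CYP83A1 (0.93), SUR1 (0.89) and the sulfotransferase SOT17 (1.19). CYP79F2, which starts the core pathway, rose from 29.1 to 82.3 CPM. MAM1 was lower at -0.15, and AOP2 was not called at 0.44. The median of the list was 0.83 at 10 °C and -0.12 at 4 °C, and 17 of the 20 were higher at 10 than at 4 °C, a comparison in which 30.3% of all genes were.

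Sulfate assimilation showed the same direction, with 13 of 17 genes higher and a median of 0.77. The median against 22 °C was -0.14 at 4 °C and 0.06 at 0 °C. APR1, APR2 and APR3, the reductases at the control step of the pathway, rose by 1.14, 1.09 and 1.27. APR1 was at 64.9, 71.1 and 71.6 CPM at 22 °C, at 149, 155 and 152 at 10 °C and at a mean of 52.9 at 4 °C. The root sulfate importer SULTR1;2 rose from 143 to 243 CPM, and the regulator SLIM1 from 17.1 to 32.3. SULTR2;1, which moves sulfate within the plant, fell from 132 to 72.5. SDI1 and LSU2, both markers of sulfur shortage, rose by 1.31 and 1.39, while LSU1 of the same family fell by 0.32. LSU2 averaged 35.6 CPM at 10 °C and stood higher at 4 and 0 °C, at 46.6 and 76.4. SDI1 averaged 12.2 CPM at 10 °C and stood lower in those groups, at 2.89 and 2.35.

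Indolic glucosinolate genes moved less, with 9 of 13 higher and a median of 0.40. CYP79B2, which starts the pathway from tryptophan, rose from 58.9 to 89.8 CPM, against 12.3 at 4 °C and 6.48 at 0 °C. IGMT1, which methoxylates finished indolic glucosinolates, fell from 108 to 14.0 CPM. Upstream, 14 of 19 shikimate and tryptophan genes were higher, with a median of 0.61. Chorismate synthase CS rose from 61.9 to 178 CPM and EPSPS, the step before it, from 46.8 to 130. Chorismate mutase CM3 fell by 1.23 on the log2 scale. In lignin synthesis 10 of 14 genes were higher, led by the alcohol dehydrogenase CAD4 (98.0 to 235 CPM) and the methyltransferase CCOAOMT1 (244 to 522).

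Some genes were highest at 10 °C of all 4 temperatures. At every pairing, 227 genes (1.07%) were called and at least 2-fold higher at 10 °C than at each of 22, 4 and 0 °C, and 149 (0.70%) were lowest by the same rule. Scaling by total counts alone changed these counts to 451 and 80. All such comparisons share the 10 °C libraries. Of the genes described in this connection, AT4G14090, PAP1, FT, NRT2:1, AT2G04050, RFNR2, FBA5 and AT2G33830 were chosen after their values were seen. DFR was at 2.51, 3.14 and 3.14 CPM at 22 °C, at 45.8, 52.0 and 48.3 at 10 °C, and averaged 3.75 at 4 °C and 5.38 at 0 °C. LDOX was at 1.79, 2.36 and 2.83 CPM at 22 °C, at 37.9, 42.5 and 39.7 at 10 °C, and averaged 4.71 and 9.24 in the colder groups. Against 22 °C their log2 fold changes were 4.05 ± 0.13 and 4.10 ± 0.15. AT4G14090, a UDP-glycosyltransferase known to act on anthocyanins, rose from 4.47 to 24.6 CPM and stood at 7.44 and 6.38 at 4 and 0 °C. PAP1, the MYB factor that switches on the anthocyanin genes, followed with 1.73, 13.9, 4.40 and 1.24 CPM at 22, 10, 4 and 0 °C. GSTF12, which helps carry anthocyanins to the vacuole, rose from 2.28 to 30.7 CPM at 10 °C but was at 38.2 at 4 °C.

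Outside the pigment genes, the same pattern held for FT, the mobile signal that starts flowering. FT was at 1.28, 1.35 and 1.28 CPM at 22 °C and at 12.4, 13.8 and 15 at 10 °C, with means of 2.14 and 1.36 at 4 and 0 °C (10 against 22 °C, log2 3.39 ± 0.14). The high-affinity nitrate importer NRT2:1 was at 8.08, 8.12 and 8.31 CPM at 22 °C and at 40.4, 37.6 and 38.1 at 10 °C, while the colder means were 1.85 and 2.98. The MATE efflux gene AT2G04050 averaged 0.694, 10.4, 0.715 and 0.321 CPM at 22, 10, 4 and 0 °C. RFNR2, the root ferredoxin-NADP reductase, averaged 67.0, 247, 41.2 and 39.2 CPM in the same order. At the other end, the fructose-bisphosphate aldolase FBA5 averaged 1998 CPM at 22 °C and 184 at 10 °C, but 628 and 1441 at 4 and 0 °C. AT2G33830, of the dormancy/auxin associated family, averaged 895, 78.0, 317 and 1404 CPM.

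**Figure D3:**
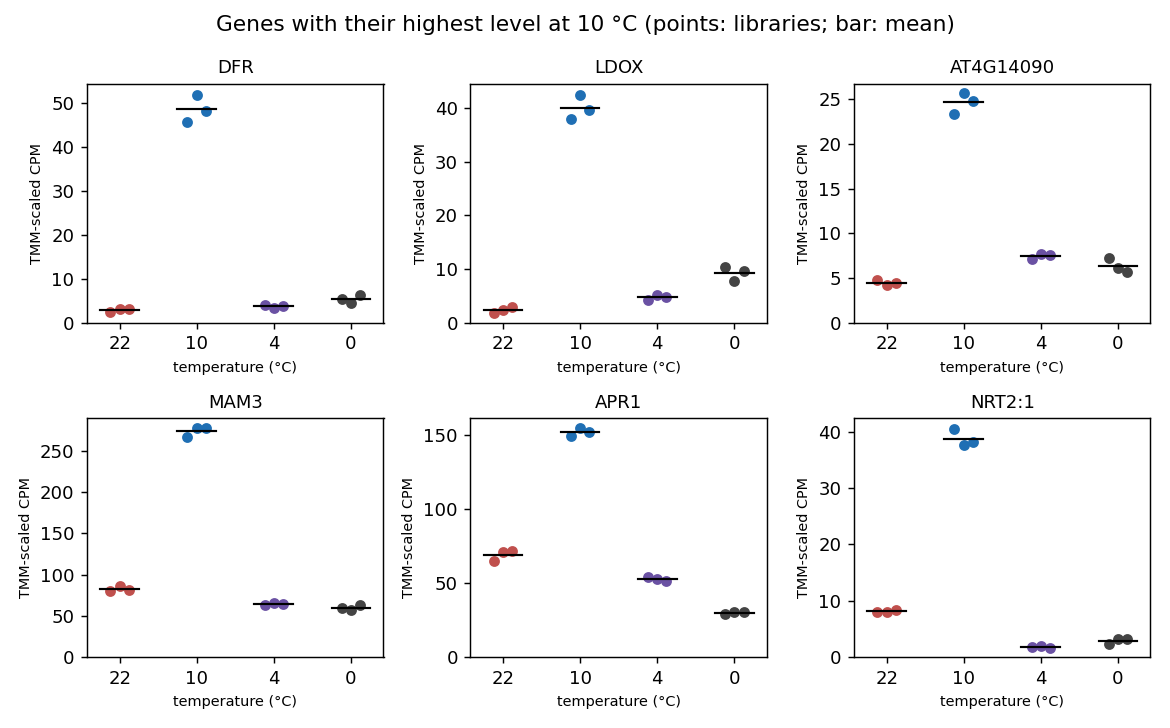
TMM-scaled CPM in all 12 libraries at 22, 10, 4 and 0 °C for 3 anthocyanin genes (DFR, LDOX and the glycosyltransferase AT4G14090), MAM3, APR1 and NRT2:1, with 1 point per library and a bar at each mean. The 3 libraries at 10 °C lie above every other library in each panel; DFR, for example, averages 48.7 CPM at 10 °C and 5.38 at 0 °C.

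Genes for making proteins rose together. Of 282 ribosomal protein genes of any compartment, 213 were higher at 10 °C and 35 lower, with a median of 0.89, and 114 were at least 2-fold higher. Their summed level was 28479 to 31298 CPM at 22 °C and 46557 to 47344 at 10 °C. At 4 °C the median against 22 °C was 0.53. Of the 282 genes, 179 were higher at 10 than at 4 °C, beside 30.3% of all genes tested. Members of these families share near-identical sequence, so values of single copies, such as RPS6 (28.7 to 73.3 CPM at 22 °C, 218 to 340 at 10 °C), are uncertain. AT1G58684 and AT1G58983, an identical pair listed at 0 in all 22 °C libraries and in all but 1 library at 10 °C, were not called. AT5G24490, annotated as a 30S ribosomal protein, went the other way, from 750, 735 and 771 CPM to 69.5, 71.6 and 72.3 (log2 -3.40 ± 0.029). The site II element was in 47.5% of the ribosomal promoters and the telo-box in 14.9%, against 16.8% and 4.31% of all.

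DEAD-box RNA helicases, which unwind RNA, several of them in ribosome assembly, were higher in 20 of 25 genes, with a median of 1.22, the highest among the lists of at least 10 tested genes other than the classic cold genes. AT4G16630 rose from 17.8 to 95.3 CPM (log2 2.42 ± 0.045) and STRS2 from 14.3 to 62.9 (2.14 ± 0.041). Of 38 proteasome subunits 33 were higher, but by little, with a median of 0.34 and PAB1 highest at 0.76. AT1G53780, a proteasome subunit by annotation, fell by 1.05. DNA replication genes were higher in 13 of 16, with a median of 0.60, among them the ribonucleotide reductase RNR1 (36.1 to 83.0 CPM) and the helicase subunit MCM3 (8.56 to 19.2). In the plastid, RPOTP, the phage-type RNA polymerase that reads housekeeping genes, rose from 14.8 to 70.0 CPM, and the sigma factor SIG4 fell from 39.7 to 10.9.

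**Figure D4:**
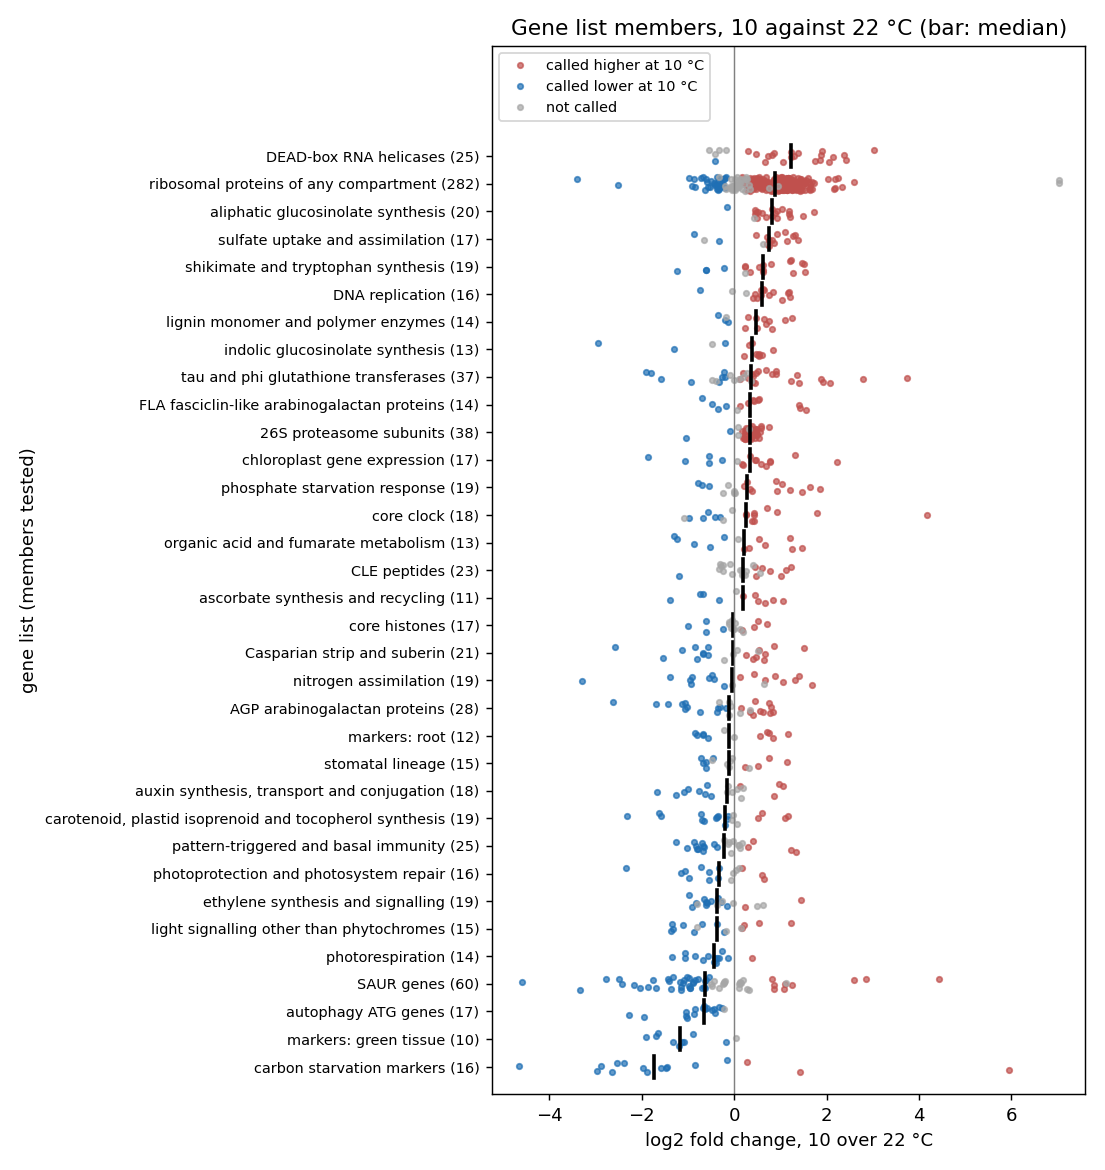
Log2 fold change of 10 over 22 °C for each tested member of the lists with at least 10 tested genes, other than the classic cold list, with red for genes called higher, blue for lower, grey for not called, and a black bar at each median. Medians run from -1.74 for carbon starvation markers to 1.22 for DEAD-box RNA helicases.

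Of 60 SAUR genes tested, small auxin-induced genes tied to cell expansion, 34 were lower and 9 higher, with a median of -0.64. At 4 °C the median was -1.86. Of the 60 genes, 44 were higher at 10 than at 4 °C, beside 30.3% of all genes tested. The auxin exporter PIN7 fell from 76.4 ± 10 to 24.0 ± 3.9 CPM (SD, n = 3) and ABCB19 from 148 to 62.3. Of 19 ethylene genes 11 were lower and 2 higher, and the synthesis gene ACS6 rose by 1.45 on the log2 scale. Among 25 immunity genes 12 were lower and 4 higher, with a median of -0.23. PAD3, the last enzyme of camalexin synthesis, was one of the rises, at 1.23.

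In the lists of pigment and light genes outside anthocyanins, more genes fell than rose. Of 19 carotenoid, plastid isoprenoid and tocopherol genes 12 were lower. CCD4, which cleaves carotenoids, fell from 536 to 107 CPM, DXS, the entry to the plastid isoprenoid pathway, from 561 to 188, and VDE1, which makes photoprotective zeaxanthin, from 192 to 62.0. VDE1 stood at 134 and 228 CPM at 4 and 0 °C. Carotene hydroxylase BETA-OHASE 1 rose from 53.8 to 120. In photoprotection 9 of 16 genes were lower and 3 higher, with PGRL1B, of cyclic electron flow, at -2.34. The early light-induced proteins ELIP1 and ELIP2, which are outside this list, rose from 16.2 to 730 CPM and from 6.21 to 1064. The photoreceptors CRY2 and PHOT1 fell by 1.35 and 1.31. Vitamin C synthesis was mixed: VTC2, its control step, rose from 242 to 507 CPM, and GALDH fell from 52.7 to 20.1.

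Other lists were split or small. Phosphate starvation genes were higher in 11 of 19 and lower in 3, with the phospholipase NPC4 highest at 1.85. Of 37 glutathione transferases 21 were higher and 8 lower. In organic acid metabolism 7 of 13 were higher, among them the carboxylase PPC3 (176 to 487 CPM), and 5 lower, among them fumarase FUM2 (88.8 to 35.9). Fasciclin-like proteins were higher in 9 of 14 (FLA16, 40.6 to 107 CPM), and arabinogalactan proteins higher in 10 and lower in 12 of 28 (AGP21, 103 to 31.9). Casparian strip and suberin genes were higher in 8 and lower in 9 of 21. CLE peptides were higher in 7 and lower in 1 of 23. Core histones were higher in 4 and lower in 4 of 17, and stomatal genes higher in 4 and lower in 5 of 15. Of all genes tested, 32.4% were called higher and 32.3% lower. The medians of the auxin, nitrogen, arabinogalactan, Casparian, histone, stomatal and root-marker lists lay between -0.15 and -0.02 and moved above 0 with total-count scaling. Light signalling genes other than phytochromes were lower in 8 and higher in 4 of 15.

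Fewer genes were called for transcript choice than for total level, by separate tests on different sets of genes, so the counts are not directly comparable. Of 4532 genes with at least 2 tested transcripts, 595 (13.1%) differed in usage between 10 and 22 °C by edgeR's diffSpliceDGE with an adjusted p under 0.05. Of these, 471 were also called for total level, as were 64.6% of all genes tested for level. The share called for level among the 4532 was not computed. The largest share shift was at least 10 percentage points in 339 of the 595 genes and at least 30 in 44, and the most abundant transcript differed in 86. POB1, a BTB-domain protein that acts in ubiquitin ligases, is shown because its 2 transcripts differ by 1 intron at chr3:22797938-22798053 (TAIR10.1, plus strand, 116 bases), spliced in AT3G61600.2 and retained in AT3G61600.1. The retained form ends its coding sequence inside the intron, at base 22797953, and the spliced form in the next exon, at 22798069. The lines give 30 bases at each end of the intron, chr3:22797928-22797957 and chr3:22798034-22798063, with the splice-site letters in capitals.
POB1 donor: ccatcaaaagGTctacagatccttagtgac
POB1 acceptor: tttttcttttcttttataAGgcttgaagaa

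The spliced POB1 transcript made up 29.8%, 28.4% and 27.2% of the gene's counts at 22 °C and 63.4%, 59.0% and 57.1% at 10 °C (adjusted p = 1.35e-09), and 67.9% and 54.6% on average at 4 and 0 °C. HEME1, a uroporphyrinogen decarboxylase of heme and chlorophyll synthesis, moved towards a transcript that keeps an 82-base intron after the stop codon (chr3:5022584-5022665). That form took 27.5%, 25.7% and 29.3% at 22 °C and 64.5%, 66.0% and 64.2% at 10 °C (adjusted p = 4.63e-13), with means of 41.1% and 31.6% at 4 and 0 °C. Both HEME1 forms have the same 1257 coding bases. KAT5, a 3-ketoacyl-CoA thiolase of fatty acid breakdown, switched its main transcript. AT5G48880.1, with 1245 coding bases and a short first exon of 183 bases, took 12.9%, 15.6% and 9.98% at 22 °C and 67.8%, 72.5% and 69.8% at 10 °C (adjusted p = 2.05e-09). AT5G48880.2, with a first exon of 1033 bases and 1374 coding bases, fell from 85.8% to 29.7% on average. At 4 °C the shares resembled those at 10 °C, 67.1% for the short form, and at 0 °C they resembled those at 22 °C, 12% for that form.

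Rubisco activase RCA, which keeps the carbon-fixing enzyme active, had 99.1% ± 0.18 of its counts on AT2G39730.3 at 22 °C and 78.1% ± 7.2 at 10 °C (SD, n = 3), with the third 10 °C library lowest at 69.9%. AT1G16840 raised the share of AT1G16840.4 from 3.05% to 11.4%, and to 31.2% at 0 °C. AT1G22750 raised AT1G22750.3 from 16.2% to 38.2%, AT1G01910 raised AT1G01910.1 from 8.68% to 37.0%, and AT4G26630 raised AT4G26630.2 from 11.1% to 29.5%. The RCA total on annotated transcripts was 172 CPM at 22 °C and 53.0 at 10 °C. The assembled transcripts without a gene name were not assigned to genes and may hold reads of abundant genes such as RCA, so its total and shares cover annotated transcripts only. Shares rest on the deposited division of reads among transcripts, which is an estimate.

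**Figure D5:**
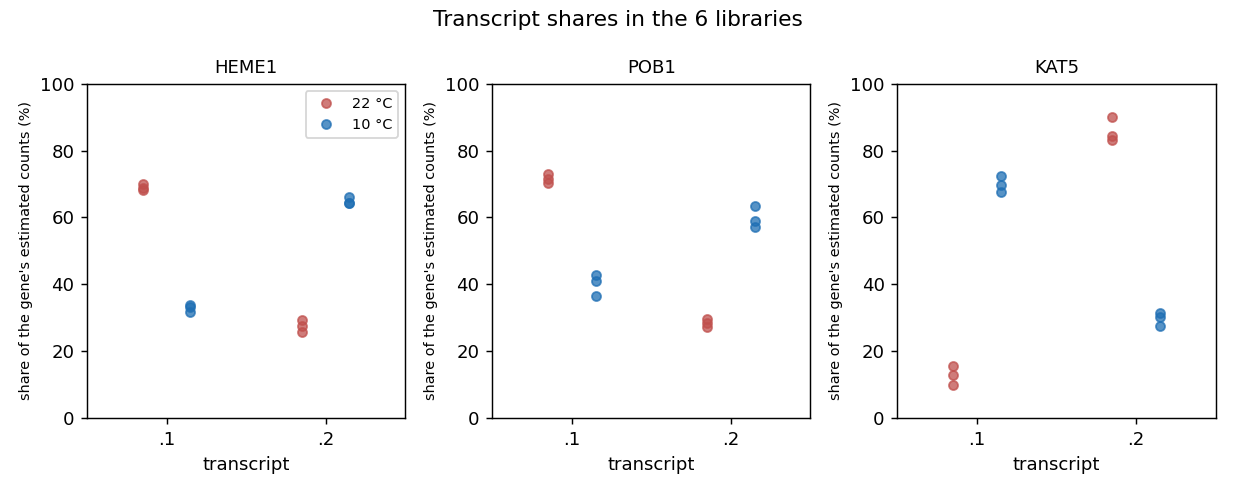
Share of each gene's estimated counts (%) on the 2 main transcripts of HEME1, POB1 and KAT5, named by their final digit, with 1 point per library, red for 22 °C and blue for 10 °C. The groups do not overlap for any of the 6 transcripts; the short-exon KAT5 form averages 12.8% at 22 °C and 70.0% at 10 °C.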

How the data were processed

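Per the labels' protocols, RNA of 12 whole-plantlet samples in 4 groups of 3 gave paired-end reads of 250 bp. The tools HISAT2 2.2.0, kallisto 0.42.4 and edgeR and the build TAIR10 appear, without their roles, per the submitters' processing notes. Use of strand in counting is not stated there, so reads of overlapping antisense genes may be mixed. The authors deposited estimated counts for 56132 transcripts and CPM values of the same table, which differ from the rescaled counts by at most 5.46e-11. Of the columns, 6 match no sample and were not used. Assembled transcripts (14509) have no gene name and were left out. Estimated counts of 41623 annotated transcripts were summed over 33560 loci and rounded to whole numbers. Names came from the TAIR10.1 annotation, in which 32818 loci were found.

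Genes kept by filterByExpr were tested with edgeR 4.0.16 in R 4.3.3 (TMM, glmQLFit, glmQLFTest) in 1 fit of all 12 libraries with 1 mean per temperature, adjusted by Benjamini-Hochberg per comparison. Standard errors are log2 fold changes over the root of the F statistic. Common biological variation was 0.10, and 1 count equals 0.025 to 0.031 CPM. Usage was tested with diffSpliceDGE. Alternatives were other scalings, filters and samples, a replicate block and DESeq2 1.42.0. The scripts were tested on simulated data. Promoters and splice sites were read from TAIR10.1 by locus and transcript ID.

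Members and lists were chosen with earlier results of these data known. Named genes were the 12 largest rises and 12 largest falls among calls averaging 5 CPM or more over the 6 libraries, without overlap between groups and outside the classic cold list, up to 4 members of each list by size of change, and the 8 usage genes with the smallest p and at least 5 CPM. Other list members are named as examples of their list and were chosen after their values were seen. Replicates are separate plates. Same-numbered libraries at 10 and 22 °C did not deviate together (correlations of -0.0018, -0.037 and -0.0065), so their numbers were not taken as pairs.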

Additional observations from a re-analysis of the deposited data

Results flagged for a closer look

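In 850 of the genes tested (3.99%) the change from 22 °C at 10 °C was opposite to that at both 4 and 0 °C, with every change called by edgeR and 10 °C called against both colder groups. Of these, 380 were higher at 10 °C and 470 lower. The same 22 °C libraries serve in all 3 changes.

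Among the 167 named genes, 10 did so. Log2 fold changes against 22 °C were 1.72 at 10 °C, -0.36 at 4 °C and -0.47 at 0 °C for MAM3 of aliphatic glucosinolate synthesis. The sulfotransferases of glucosinolate synthesis had 1.19 at 10 °C, -0.44 at 4 °C and -2.79 at 0 °C for SOT17, and 0.85 at 10 °C, -0.30 at 4 °C and -0.70 at 0 °C for SOT16. CYP79B2, which starts the indolic pathway, had 0.61 at 10 °C, -2.26 at 4 °C and -3.18 at 0 °C. In sulfate assimilation APR1 had 1.14 at 10 °C, -0.39 at 4 °C and -1.21 at 0 °C, and SDI1 had 1.31 at 10 °C, -0.76 at 4 °C and -1.06 at 0 °C. The clock-related RVE1 went the other way, with -0.98 at 10 °C, 1.36 at 4 °C and 2.55 at 0 °C. The fasciclin-like FLA6 had 1.55 at 10 °C, -2.63 at 4 °C and -3.21 at 0 °C. Its levels were low, with means of 0.79, 2.34, 0.13 and 0.08 CPM at 22, 10, 4 and 0 °C. The CLE peptide genes CLE4 and CLE7 had 1.23 at 10 °C, -1.24 at 4 °C and -1.82 at 0 °C, and 1.13 at 10 °C, -2.03 at 4 °C and -1.15 at 0 °C. Both were low as well. CLE4 averaged 0.65, 1.52, 0.27 and 0.18 CPM at 22, 10, 4 and 0 °C, and CLE7 0.61, 1.35, 0.15 and 0.27. CLE7 lost its call at 10 °C without the second 10 °C library (adjusted p = 0.0685).

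The assembled loci without a gene name, outside the gene comparison, also changed. Fitted together with the annotated genes, 1517 of 7258 were called higher at 10 °C and 1194 lower, and 950 and 594 were at least 2-fold so. In the main fit of annotated genes 32.4% were called higher and 32.3% lower, which are larger shares. At least 2-fold, 10.5% of annotated genes were higher and 8.96% lower.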

How the results depend on the processing

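Counts of called genes at 10 against 22 °C stayed within 1.5 times of those reported under every alternative run, except that a minimum mean of 5 CPM left 1465 genes at least 2-fold higher and 1182 at least 2-fold lower, since fewer genes were tested. The genes highest and lowest at 10 °C, 227 and 149, became 451 and 80 with total-count scaling and 255 and 123 with upper quartile factors. Leaving out a library in turn gave 12890 to 13194 genes called, 2187 to 2295 at least 2-fold higher, 1886 to 1952 at least 2-fold lower and 419 to 522 genes with a change of usage. DESeq2 called 13345 genes. Total-count scaling moved the share of calls that were higher from 50.1% to 61.6%, and upper quartile factors to 48.6%. The replicate block gave 13565 called genes and 530 for usage. The labels' numbers were not taken as pairs, as same-numbered libraries did not correlate, which is a weak check with 3 libraries per group.

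Over 2295 refits of the 167 named genes, 2247 kept the direction and side of the threshold, 43 lost a call and 3 gained one. In 2 refits the log2 fold change was 0. These were AT1G58684 and AT1G58983 without the third 10 °C library, the only one of the 6 with a count. Both genes reached 7.59 without the first 10 °C library and were never called. Calls were lost under some alternative for EPF2, PLT2, ALD1, CLE7, HTA4, HTR11, POLAR (AT4G31805) and AT4G19112, and gained for RVE8 and SEP1. Depth limits genes near 1 CPM.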
